A study of Mus musculus with 3 samples.

Results

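S phase and replication genes are taken here as a list of 34 symbols that runs from the helicase subunits Mcm2 to Mcm7, through the polymerases and the enzymes of nucleotide supply, to the factors that guard the replication fork. The list was drawn up by symbol, with earlier results of these data known, and 33 of the 34 matched 1 of the 32285 genes counted. The remaining symbol, Slbp2, was not analysed here. The genes were followed in organoids, which are small cultured structures grown in a gel, started from submandibular salivary glands of C57BL/6 mice aged 8 to 12 weeks.

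The organoids came from 4 animals and grew in Matrigel with EGF, FGF2, insulin, dexamethasone, the kinase inhibitor Y27632, and media conditioned with Wnt3a and R-spondin1, all of which the control shared. The control was not irradiated. On day 5 the photon culture was given 7 Gy of photons and the proton culture 7 Gy of protons from the beam's plateau. Collection of the control and of both irradiated cultures took place on day 11, 6 days after irradiation. From each, 45000 cells that excluded propidium iodide, a dye that enters dead cells, were sorted and used for 3′ single-cell RNA sequencing on the 10x Genomics platform. Each group is 1 library, and the labels tie no cell to an animal, so no difference between groups could be tested and no p-value is given. The intervals below are exact 95% intervals that cover counting error only, and the spread between cultures is not known.

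A cell copies its DNA once per division. In G1 the helicase made of Mcm2 to Mcm7 is loaded onto origins with the help of Cdc6 and Cdt1, and at the start of S phase Cdc45 and the GINS complex turn it on. Polymerases then extend the new strands behind a sliding clamp, Pcna, while ribonucleotide reductase and thymidylate synthase supply the nucleotides and histone chaperones rebuild the chromatin. Many of these genes are transcribed under E2F factors as a cell commits to divide, and in a salivary gland organoid dividing progenitor cells are what makes the structure grow.

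Short stretches of the promoters of 3 members are shown because they hold the letters that E2F factors are known to bind, and because these genes differed in how they moved in the libraries. They are from RefSeq on GRCm38.p6, written 5′ to 3′ on the gene's strand. Distances are to the start in that promoter set, which for Mcm5 and Mcm6 differs from the GENCODE M21 start used for gene positions. Capitals mark each place where TTTCCCGC, TTTGGCGC, TTTCGCGC or TTTGCCGC occurs on either strand. The Mcm5 stretch is chr8:75109319-75109398 on the plus strand, 190 to 111 bases before the start. The Mcm6 stretch is chr1:128359736-128359825 on the minus strand, 120 to 31 bases before the start. The Pola1 stretch is chrX:93632246-93632325 on the minus strand, 170 to 91 bases before the start.
Mcm5: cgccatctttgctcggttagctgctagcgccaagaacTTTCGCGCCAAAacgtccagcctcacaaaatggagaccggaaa
Mcm6: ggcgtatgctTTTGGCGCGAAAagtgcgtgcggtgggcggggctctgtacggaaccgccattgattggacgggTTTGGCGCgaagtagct
Pola1: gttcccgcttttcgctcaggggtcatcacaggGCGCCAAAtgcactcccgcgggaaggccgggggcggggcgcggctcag

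The Mcm5 stretch holds 2 overlapping matches, the Mcm6 stretch holds 3, of which 2 overlap, and the Pola1 stretch holds 1. RefSeq promoter windows of 300 bases, 250 before to 50 after the start, were at hand for 26 of the 33 members. A match lay in a window of 11 of these 26 genes, or 42.3%, against 704 of 27025 genes, or 2.60%, over the whole promoter table. The 11 were Mcm3, Mcm5, Mcm6, Mcm7, Cdc6, Cdt1, Pola1, Pold3, Pclaf, Uhrf1 and Clspn. Such a match is a run of letters and not a measured binding site.

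The 3 libraries kept 13219, 15041 and 13956 cell barcodes for control, photon and proton. They held 39514768, 46936995 and 36692939 unique molecular identifiers (UMIs), each of which stands for 1 captured RNA molecule. The median UMIs per barcode were 2757, 2808 and 2223, so the proton library was the shallowest per cell. Values given in threes keep this order of control, photon and proton. Between 49 and 56 barcode sequences occurred in each pair of libraries. Epithelial markers dominated: the summed level of 6 luminal genes was 3539, 5012 and 2945 CPM, the UMIs of the genes scaled to a library total of 1e+06, and that of 6 basal genes 3719, 4253 and 2430 CPM. The 6 fibroblast markers summed to between 0.409 and 0.767 CPM, with Col1a2 and Lum at 0 in every library, and the 6 immune markers to between 2.40 and 2.92 CPM. Of the acinar markers, which define the saliva-secreting cells of the gland, Prol1 was at 0 in all libraries and the 6 together gave 53.5, 35.2 and 45.9 CPM.

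Summed over the 33 genes, replication transcripts made up 489 CPM in the control library, 969 CPM in the photon library and 706 CPM in the proton library. The photon library was thus 1.98 times the control (interval 1.95 to 2.02) and the proton library 1.44 times (1.42 to 1.47). Both comparisons use the same control library. Against the photon library the proton library stood at 0.729 times (0.718 to 0.740). The order was control lowest, proton between, photon highest. A summed level does not tell more cells that carry these transcripts from more of them per cell, which the counts per barcode further on address.

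**Figure D1:**
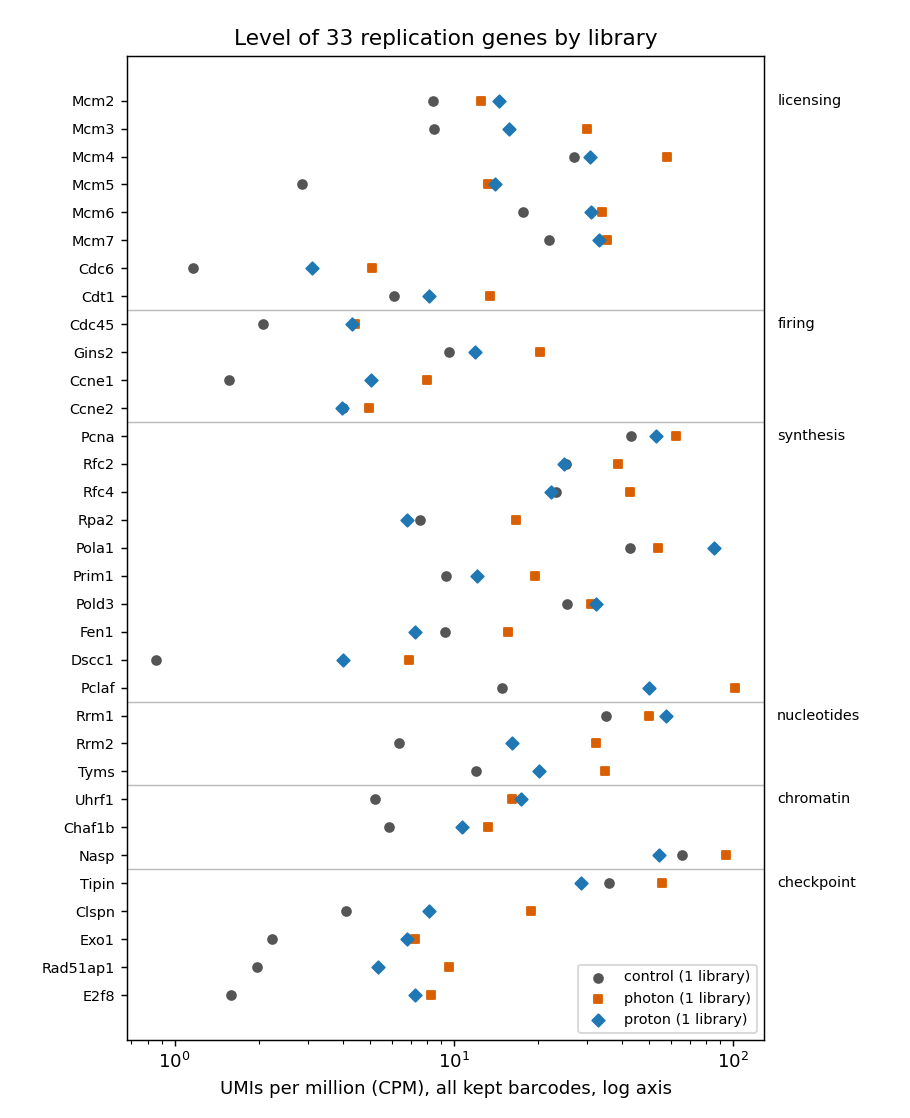
Level of each of the 33 replication genes, in CPM on a log axis, with 1 point for each library (control, photon, proton), grouped by role. The photon point lies to the right of the control point for every gene, from Pold3 at 1.22 times to Dscc1 at 8.05 times, while the proton points lie on both sides of the control.

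Every one of the 33 genes was higher in the photon library than in the control with a counting interval above 1. Of the 14069 genes with at least 50 UMIs over both libraries, 25% did the same. By size, 20 of the 26 members with a mean level of at least 5 CPM were at least 1.5 times as high, 0 were lower by the same fold, and 6 lay between. Of the 10090 genes at that level, 7.37% were higher by that rule and 9.45% were lower. The members' median ratio was 2.10, or 1.07 on the log2 scale, where the median over the 10090 genes was -0.12. Scaled instead by the median of gene ratios, which sets that median to 0, 24 of the 26 were higher and 0 were lower. The members' log2 median was then 1.20, and of the 10090 genes 985 were higher and 530 lower. Mcm5, Clspn and Rad51ap1 reached 5 CPM on average only through their irradiated level. With no minimum level 26 of all 33 were at least 1.5 times as high, beside 4469 genes higher and 5846 lower over all genes.

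In the proton library 26 of the 33 members had an interval above 1 against the control, 3 had one below 1 (Fen1, Nasp and Tipin) and 4 intervals held 1 (Ccne2, Rfc2, Rfc4 and Rpa2). Of all genes with at least 50 UMIs, 38.5% had an interval above 1 in this comparison and 36.5% had one below 1. At the 1.5-fold size 13 of 25 members that reached 5 CPM were higher and 0 were lower. Of all genes at that level 14.2% were higher and 14.9% lower. The members' median ratio was 1.51. With no minimum level 20 of 33 were at least 1.5 times as high, beside 5883 genes higher and 6152 lower over all genes.

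Set against the photon library, 23 of 33 members were lower in the proton library with an interval below 1, 3 were higher (Mcm2, Pola1 and Rrm1) and 7 intervals held 1. Over all genes 30.8% had an interval below 1 and 44.7% had one above 1. By size 18 of 30 were lower, where 14% of all genes were, and Pola1 alone was higher, where 22.2% of all genes were. The median ratio of the 30 was 0.613. Scaled by the median of gene ratios, 18 were lower and 0 were higher, so Pola1 no longer reached 1.5-fold. Of 10157 genes, 1924 were then lower and 1528 higher. Most members thus had the direction of the summed level.

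**Figure D2:**
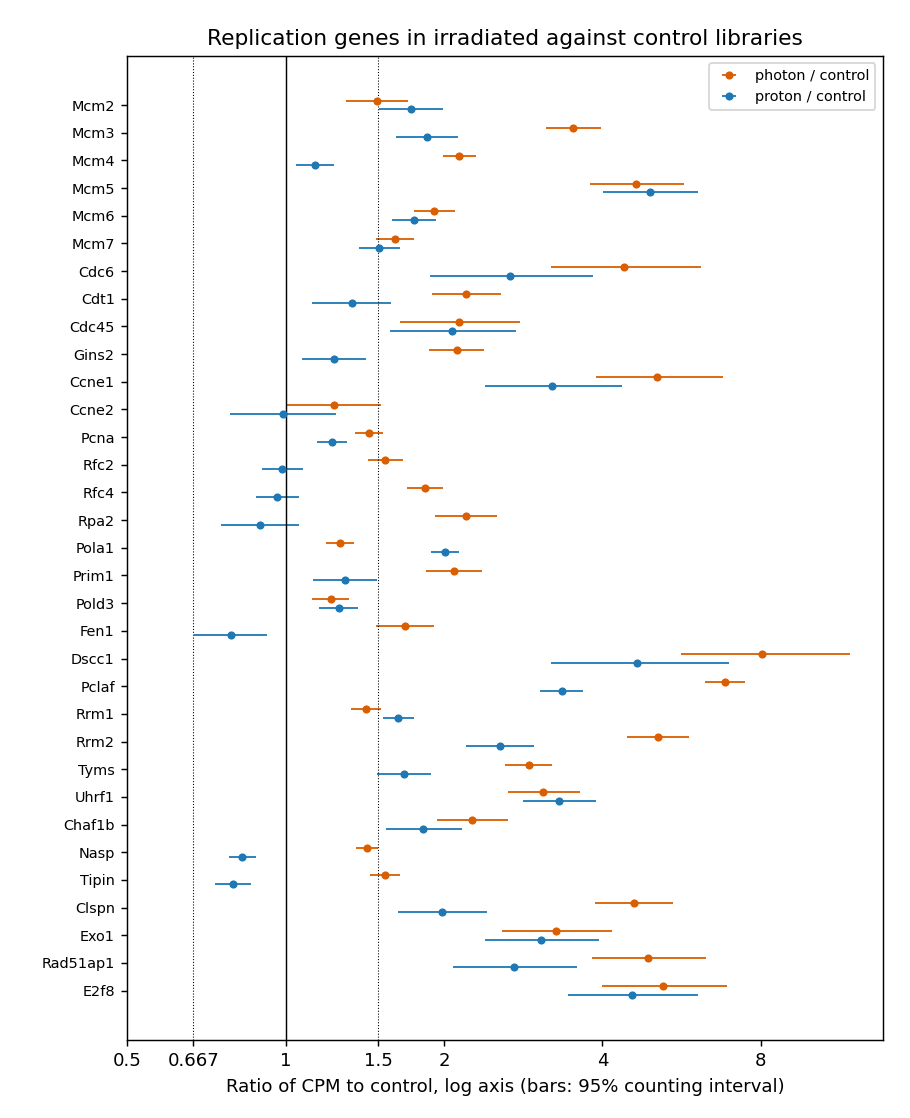
Ratio of CPM in the photon (orange) and proton (blue) libraries to the control library for each of the 33 genes, on a log axis, with exact 95% counting intervals as bars, a solid line at 1 and dotted lines at 1.5-fold. All orange points lie right of 1, with Dscc1 and Pclaf farthest, and the blue points of Fen1, Nasp and Tipin lie left of 1 with their bars.

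The licensing factors, which prepare origins, were higher in the photon library in 6 of the 7 members that reached 5 CPM, and in the proton library in 5 of 7, beside 7.37% and 14.2% of all genes. Mcm5, a subunit of the helicase ring (chr8:75109569-75128439, plus strand, GRCm38), gave a control level of 2.86 CPM, a photon level of 13.3 CPM and a proton level of 14.1 CPM. These levels rest on 113, 622 and 516 UMIs. The irradiated libraries lay at 4.63 (3.79 to 5.71) and 4.92 (4.00 to 6.08) times the control and close to each other, at 1.06 times.

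The other ring subunits did not follow Mcm5 in size. Mcm3 (chr1:20802968-20820312, minus strand) gave 8.50, 29.9 and 15.8 CPM in control, photon and proton, so photon stood at 3.52 times the control and proton at 1.86 times. Mcm4 gave 27.1, 57.8 and 30.8 CPM, with the proton library near the control at 1.14 times. Mcm2 gave 8.40, 12.5 and 14.6 CPM and was the only ring subunit besides Mcm5 that was higher in proton than in photon. The ring is built from 1 copy of each subunit, yet the ratios of their transcripts to control ran from 1.49 to 4.63 in photon and from 1.14 to 4.92 in proton. Mcm6 gave 17.6, 33.8 and 30.9 CPM, and Mcm7 gave 21.9, 35.4 and 33.1 CPM. Mcm7 has the microRNA genes Mir25, Mir93 and Mir106b inside it on its strand, and the counts do not tell which part of the gene its UMIs came from.

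Cdc6 and Cdt1 load the ring onto origin DNA. Cdc6 rested on few molecules, with 1.16 CPM in control against 5.11 in photon and 3.11 in proton, ratios of 4.39 and 2.67. Cdt1 gave 6.12, 13.5 and 8.18 CPM, at 2.21 times the control in photon.

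The firing factors turn the loaded helicase on. Gins2, a subunit of the GINS complex, gave a control level of 9.64 CPM, a photon level of 20.4 CPM and a proton level of 11.9 CPM. The photon library stood at 2.11 times the control, and the proton library lay nearer to the control at 1.24 times. Cdc45, its partner in the active helicase, gave 2.08, 4.43 and 4.31 CPM, with the irradiated libraries alike. The E-type cyclins drive entry into S phase with Cdk2. Ccne1 gave 1.57, 7.99 and 5.04 CPM, while Ccne2 was at 4.02, 4.96 and 3.98 CPM. The 2 cyclin genes thus differed, with photon ratios of 5.09 and 1.23.

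Of the 9 genes of DNA synthesis that reached 5 CPM, 6 were higher in photon, beside 7.37% of all genes, and 2 in proton, beside 14.2%. Dscc1, part of an alternative clamp loader (chr15:55076099-55090491, minus strand), showed the largest photon ratio among the 33, with 0.860 CPM in control from 34 UMIs, 6.92 in photon from 325 and 4.01 in proton from 147. Its ratio to control was 8.05 (5.64 to 11.8) in photon and 4.66 in proton. Pclaf, a small protein that binds the Pcna clamp (chr9:65890237-65903266, plus strand), went from 14.9 CPM in control to 102 CPM in photon and 50.0 CPM in proton. It stood at 6.83 (6.27 to 7.45) and 3.35 (3.05 to 3.68) times the control, and the 2 intervals did not overlap. The clamp itself, Pcna, moved less, at 43.2, 62.2 and 52.9 CPM.

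Pola1, the catalytic subunit of the polymerase that starts each new strand together with primase (chrX:93304767-93632155, minus strand), had its highest level in proton. It gave 42.6 CPM in control against 54.0 in photon and 85.5 in proton, and it alone was higher in proton than in photon by 1.5-fold or more, at 1.58 times. Prim1, the small primase subunit that works with it, gave 9.34, 19.5 and 12.1 CPM and so had its highest level in photon. Pola1 spans 327 kb and is the only member of the long class when genes are divided by span, as described further on.

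Fen1, which removes the flaps left on the lagging strand, gave a control level of 9.26 CPM, a photon level of 15.6 CPM and a proton level of 7.28 CPM. It was higher than control in photon at 1.68 times and lower in proton at 0.786 times (0.668 to 0.922). The clamp loader subunits and a single-strand binding subunit went the same way from photon to proton. Rfc4 gave 23.2, 42.7 and 22.4 CPM, Rfc2 gave 25.1, 38.9 and 24.8 CPM, and Rpa2 gave 7.59, 16.7 and 6.79 CPM. The proton ratios of these 3 to control held 1 within their intervals. Pold3, an accessory subunit of the lagging strand polymerase, gave 25.5 CPM in control and 31.1 and 32.2 CPM in the irradiated libraries.

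The 3 members of nucleotide supply had intervals above 1 in both irradiated libraries. Rrm2, the subunit of ribonucleotide reductase that appears in S phase (chr12:24708241-24714146, plus strand), gave 6.35, 32.4 and 16.2 CPM in control, photon and proton. The ratios were 5.10 (4.46 to 5.86) and 2.55 (2.20 to 2.97). Rrm1, its partner subunit, gave 35.2, 50.0 and 57.6 CPM, with ratios of 1.42 and 1.64. Tyms, thymidylate synthase, gave 12.0, 34.9 and 20.2 CPM, at 2.90 times in photon.

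Among the chromatin factors, Uhrf1, which carries DNA methylation through replication, gave 5.24 CPM in control against 16.2 in photon and 17.4 in proton, 3.09 and 3.31 times the control. Chaf1b, of the chaperone that places new histones at the fork, gave 5.85, 13.2 and 10.7 CPM. Nasp, a chaperone of free histones (chr4:116601052-116627941, minus strand), gave 65.8, 94.0 and 54.4 CPM. It was 1.43 times the control in photon and 0.827 times (0.780 to 0.877) in proton.

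The checkpoint and repair members guard the fork or act at breaks. Clspn, an adaptor of the Chk1 checkpoint kinase, gave a control level of 4.13 CPM, a photon level of 18.9 CPM and a proton level of 8.18 CPM. Rad51ap1 gave 1.97, 9.63 and 5.37 CPM, and Exo1, an exonuclease of mismatch repair and end resection, gave 2.23, 7.27 and 6.81 CPM. E2f8, a repressor that itself is switched on late in the E2F programme (chr7:48866429-48881596, minus strand), gave 1.59, 8.31 and 7.25 CPM. Tipin, of the fork protection complex, was the exception, at 36.1, 55.6 and 28.6 CPM, with a proton ratio of 0.794 (0.733 to 0.861).

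Members with and without a promoter match both had medians above 1. The 11 with a match had a median photon ratio of 3.09 and a median proton ratio of 1.98, and the 15 members whose windows held none had 2.14 and 1.68. Pola1, Mcm5 and Mcm6, whose letters are printed above, had photon ratios of 1.27, 4.63 and 1.92.

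Replication genes outside the 33 were counted by the same rule. Of a list of 61, 19 of the 50 that reached 5 CPM were higher in photon and 0 were lower. Over all genes 7.37% were higher and 9.45% lower. In proton 19 of 48 were higher and 2 were lower, beside 14.2% of all genes higher and 14.9% lower. Of those higher, 7 in photon and 6 in proton had a control level under 5 CPM and passed only through their irradiated level. With no minimum 26 of the 61 were higher and 0 lower in photon, beside 4469 genes higher and 5846 lower over all genes. In proton 28 were then higher and 3 lower, beside 5883 genes higher and 6152 lower. Among the genes that reached 5 CPM the highest photon ratios were those of Ccna2, the cyclin of S phase and G2, with 2.30 CPM in control and 15.4 in photon (6.70 times), Tk1, thymidine kinase (4.11 times), and Pole, the leading strand polymerase (3.54 times). The lowest were Orc4, an origin recognition subunit (0.700 times), Donson, a replisome factor (0.718), and Rrm2b, a p53-induced subunit of ribonucleotide reductase (0.767).

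In the proton library Ccna2 (5.59 times), Pole (4.69 times) and Hells, a chromatin remodeller (2.78 times), stood highest among the genes that reached 5 CPM. The lowest of these were Slbp (0.332 times), Asf1a (0.512) and Rrm2b (0.670). Slbp binds the stem-loop of histone messages and Asf1a hands histones to the assembly factors. Slbp gave 50.9, 58.4 and 16.9 CPM in control, photon and proton, so the proton library alone was low. Between the irradiated libraries 12 of 53 of these genes were lower in proton, where 14% of all genes were, and 5 were higher, where 22.2% of all genes were.

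To see how far the differences lay in the number of cells that carry replication transcripts, barcodes with at least 1 UMI of Pclaf or Rrm2 were set apart. They numbered 349 of 13219 in control, or 2.64% (2.37 to 2.93), 2210 in photon, or 14.7% (14.1 to 15.3), and 1325 in proton, or 9.49% (9.01 to 9.99). Depth differs between the libraries, so each barcode with at least 2000 UMIs was also thinned to 2000. The shares were then 1.99%, 13.5% and 10.0% of 9620, 10891 and 7939 barcodes, with 3599, 4150 and 6017 shallower ones left out. The order of the libraries was the same with and without thinning.

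These barcodes carried a large portion of the other 31 members. They held 4.18%, 21.5% and 14.3% of all UMIs, but 14.3%, 52.1% and 36.5% of the UMIs of the 31. Within them the 31 genes summed to 1598 CPM in control against 2024 in photon and 1638 in proton. In the remaining barcodes the sums were 418, 510 and 474 CPM. The barcodes so chosen were deeper, with a median of 4443, 4284.5 and 3571 UMIs against 2735.5, 2589 and 2113 in the rest.

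Within the Pclaf or Rrm2 barcodes the irradiated libraries differed much less from control than over all barcodes. The summed ratio of the 31 was 1.27 (1.22 to 1.32) for photon against control and 1.03 (0.982 to 1.07) for proton against control, where over all barcodes it was 1.78 and 1.37. By size 5 of the 31 were higher in photon and 0 were lower, where 6.18% of all genes were higher and 17.4% lower. The 5 were Mcm3 (1.75 times), Cdc6 (2.14), Ccne1 (1.92), Dscc1 (2.72) and Chaf1b (1.63). In proton 5 were higher, where 14.2% of all genes were, and 2 were lower, where 18.8% were. Those higher were Mcm2, Ccne2, Pola1, Dscc1 and Rrm1, and those lower were Rpa2 (0.505 times) and Fen1 (0.476). The summed proton to photon ratio was 0.810 (0.789 to 0.830) in these barcodes and 0.767 over all barcodes. Between the irradiated libraries 13 were lower in proton, where 14.8% of all genes were lower, and Pola1 was higher, where 23.9% were.

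The direction of these within-barcode values against control depended on how the barcodes were chosen. In control 117 of the 349 barcodes, or 33.5%, carried 2 or more UMIs of Pclaf and Rrm2, against 1269, or 57.4%, in photon and 536, or 40.5%, in proton. When 2 were required, the summed photon ratio was 0.934 (0.891 to 0.979) and the proton ratio 0.788 (0.748 to 0.831). With Top2a or Mki67, which are no members, in their place, the ratios were 1.23 and 0.968. With the barcodes chosen and counted at 2000 UMIs, the summed photon ratio was 1.37 (1.26 to 1.48). No direction against control is therefore read from the level within such barcodes. The summed proton to photon ratio was below 1 under each of these choices. It was 0.844 with 2 UMIs required, 0.785 with Top2a or Mki67, and 0.776 at 2000 UMIs.

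Genes outside the 33 were ranked by how much higher they were in the Pclaf or Rrm2 barcodes. The 10 with the highest ratio to the remaining barcodes, by the lowest of the 3 libraries, were Hist1h1b, a linker histone made in S phase (26.0 times), Top2a (12.7), Mki67 (10.1), Prc1 (9.43), Smc2 (7.58), Diaph3 (7.50), Birc5 (7.45), Ube2c (7.42), Ckap2l (7.31) and Cenpf (6.84). Top2a untangles sister chromatids, and Prc1, Birc5 and Cenpf act at the spindle or kinetochore. Cdkn1a, the p53-induced inhibitor of cyclin-dependent kinases, ran the other way in the irradiated libraries: its level in the Pclaf or Rrm2 barcodes was 157, 210 and 119 CPM, against 158, 345 and 197 CPM in the rest.

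The number of different members in each barcode was counted next. At 2000 UMIs at least 2 different members were found in 19.2% (18.4 to 20.0) of control barcodes, 34.0% (33.1 to 34.9) of photon barcodes and 28.97% (27.97 to 29.98) of proton barcodes. Without thinning the shares were 29.9%, 39.4% and 29.9%, so at unequal depth the proton share equalled the control's. At least 5 were found in 125 control barcodes, or 1.30% (1.08 to 1.55), 1097 photon barcodes, or 10.1% (9.51 to 10.7), and 531 proton barcodes, or 6.69% (6.15 to 7.26). No member at all was found in 45.4%, 37.4% and 41.9%. The largest number in a single barcode was 16, 16 and 14. At least 10 were found in 14, 118 and 21 barcodes, or 0.146%, 1.08% and 0.265%.

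**Figure D3:**
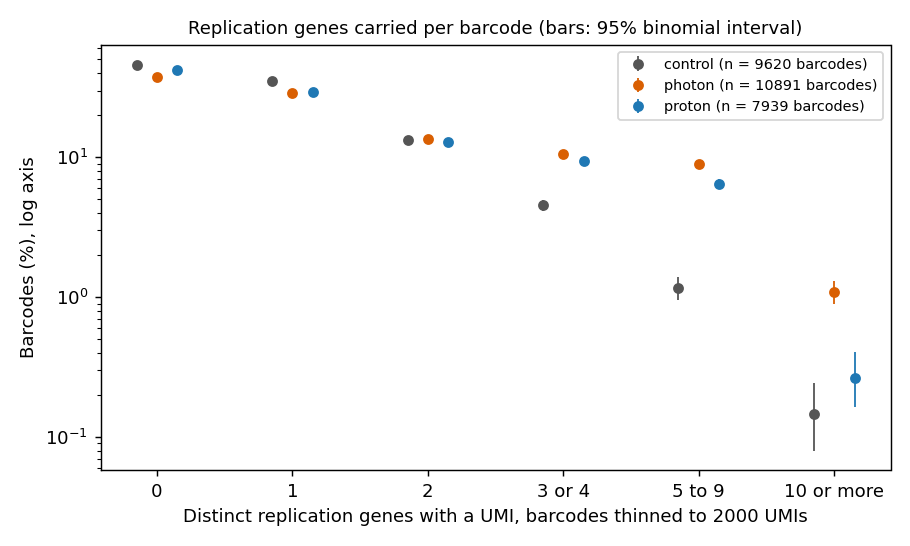
Percent of barcodes, each thinned to 2000 UMIs, in separate classes by the number of different replication genes carried, on a log axis, for each library. In the class of 5 to 9 genes control is at 1.15%, photon at 8.99% and proton at 6.42%.

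Single members behaved unevenly by this count too. Pclaf was found in 1.15%, 10.8% and 8.00% of thinned barcodes, Mcm5 in 0.468%, 2.56% and 2.73%, and Nasp in 11.1%, 15.4% and 9.77%. In photon 90.9% of the barcodes with Pclaf carried another member, and in control 91.0% did, whereas of the barcodes with Nasp 74.9% and 51.7% did. Nasp and other broadly found members thus lie partly outside the barcodes with many members.

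Free RNA from broken cells can put UMIs into barcodes that do not express a gene, so a group that should lack the members was sought. Barcodes with at least 3 UMIs of squamous genes, a fate linked with leaving the cycle, did not serve: 6.81%, 18.6% and 14.1% of them carried 5 or more members, more than the 1.13%, 9.46% and 6.06% of the rest, at median depths of 4877, 3752.5 and 3394.5 UMIs against 3181, 3347 and 3093. The lowest share among the splits by a state gene described next was that of control barcodes with Aox3, an aldehyde oxidase, at 3 of 1990, or 0.151%. For Pclaf or Rrm2 the lowest share in each library was that of barcodes with no Krt14 UMI, at 0.911% in control, 3.32% in photon and 4.56% in proton, beside 1.99%, 13.5% and 10.0% of all barcodes at the same 2000 UMIs. None of these barcodes is known to lack the genes.

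Barcodes with 5 or more members were more frequent among those with Krt14, a keratin of basal cells, than among those without. Among barcodes with a Krt14 UMI at 2000 UMIs, which were 80.6%, 81.5% and 63.6% of each library, 1.56%, 12.1% and 9.31% carried 5 or more members. Among those with none the shares were 0.214%, 1.14% and 2.11%. At least 2 members were found in 19.7%, 38.2% and 35.6% with Krt14 and in 17.0%, 15.8% and 17.5% without. By that lower cut the control shares differed little. The summed level of the 33 with Krt14 was 468, 1036 and 874 CPM, ratios of 2.21 (2.15 to 2.27) and 1.87 (1.81 to 1.93) to control. In the barcodes with no Krt14 UMI it was 409, 410 and 441 CPM, ratios of 1.00 (0.935 to 1.08) and 1.08 (1.01 to 1.15). The proton to photon ratio of the summed level was 0.843 (0.822 to 0.865) with Krt14 and 1.07 (1.01 to 1.14) without. Krt14 UMIs were rarer in the proton library, and whether this bears on its lower summed level over all barcodes was not tested. A barcode split by a single UMI is a range and not a cell type.

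**Figure D4:**
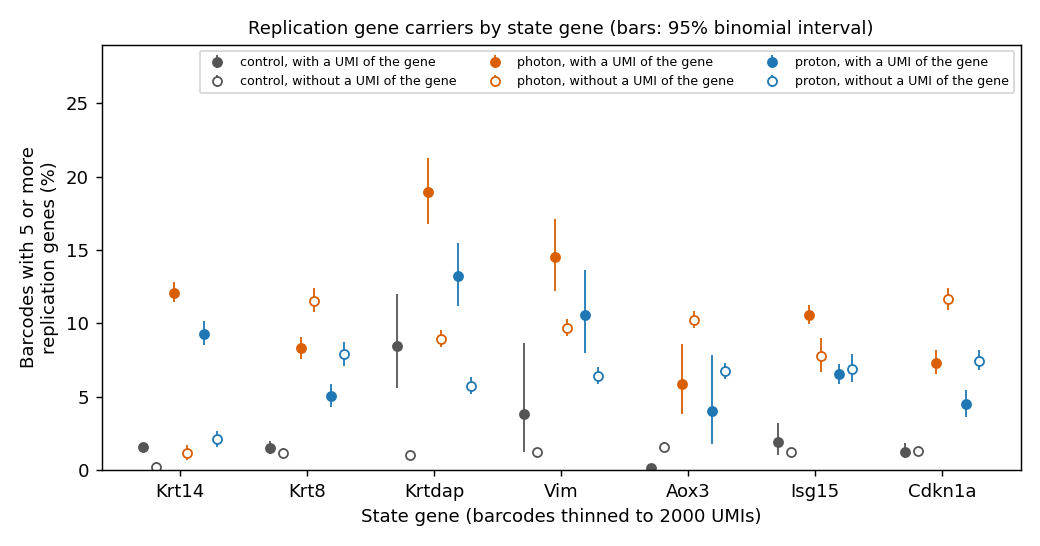
Percent of barcodes at 2000 UMIs with at least 5 of the 33 replication genes, among barcodes with and without a UMI of each of 7 state genes, for each library, with exact 95% intervals. In photon the gap is largest at Krt14, which stands at 12.1% with and 1.14% without, and control stays below 10% in every split.

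Krtdap, Vim, Krt8, Cdkn1a and Isg15 were used in the same way. Barcodes with Krtdap, a gene of squamous differentiation, held 5 or more members in 8.44% of control, 18.9% of photon and 13.2% of proton, against 1.05%, 8.95% and 5.76% of those without it. With Vim, an intermediate filament gene, the shares were 3.82%, 14.6% and 10.6%, against 1.26%, 9.70% and 6.43%. Krt8, a luminal keratin, went the other way in the irradiated libraries, with 8.30% and 5.05% against 11.6% and 7.90%. Barcodes with Cdkn1a held fewer in photon and proton, with 7.32% against 11.6% and 4.50% against 7.46%. With Isg15, an interferon-induced gene that was 25.7 times as high in photon as in control, the shares were 10.6% with and 7.78% without in photon, 6.55% with and 6.93% without in proton.

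Members differed in how often their barcodes also held genes of G2 and mitosis. Of the barcodes with 5 or more members, 42.4% in control, 51.7% in photon and 49.5% in proton also held at least 2 of 20 G2/M genes. In photon the share of a member's carriers with such genes was highest for Pclaf (67.5%), E2f8 (62.5%), Rad51ap1 (61.3%), Clspn (54.9%) and Rrm2 (52.6%). It was lowest for Mcm2 (21.7%), Ccne2 (23.4%), Pold3 (24.2%), Mcm7 (24.8%) and Pcna (26.3%). Of all photon barcodes at this depth 16.1% held such genes. Licensing factors and Ccne2 are textbook genes of the G1 to S step, and Pclaf and E2f8 last later into the cycle. In control the same measure was 57.7% for Pclaf and 3.06% for Mcm7, beside 1.69% of all control barcodes.

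By this split, 0.748% of control barcodes, 4.87% of photon barcodes and 3.38% of proton barcodes held many replication genes with fewer than 2 G2/M genes. Both sets were found in 0.551%, 5.21% and 3.31%, and G2/M genes alone in 1.14%, 10.9% and 10.8%. The summed level of the 20 G2/M genes was 144, 638 and 446 CPM. Replication and mitotic transcripts were both higher in the irradiated libraries, and cells with either set made up a minority of each library.

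Gene span, the length from the start to the end of the gene, moved with the proton and photon difference. Over all genes, divided at 15.6 and 45.1 kb, the median proton to photon ratio was 0.825 for the short class, 1.04 for the middle and 1.47 for the long class. Members gave 0.582 over 16 short genes, 0.807 over 13 of middle span, and 1.58 for Pola1, the only long member with at least 5 CPM. Spearman's rho of span with this ratio was 0.41 over the 33 members and 0.57 over 10149 genes, as descriptions across genes that share libraries.

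**Figure D5:**
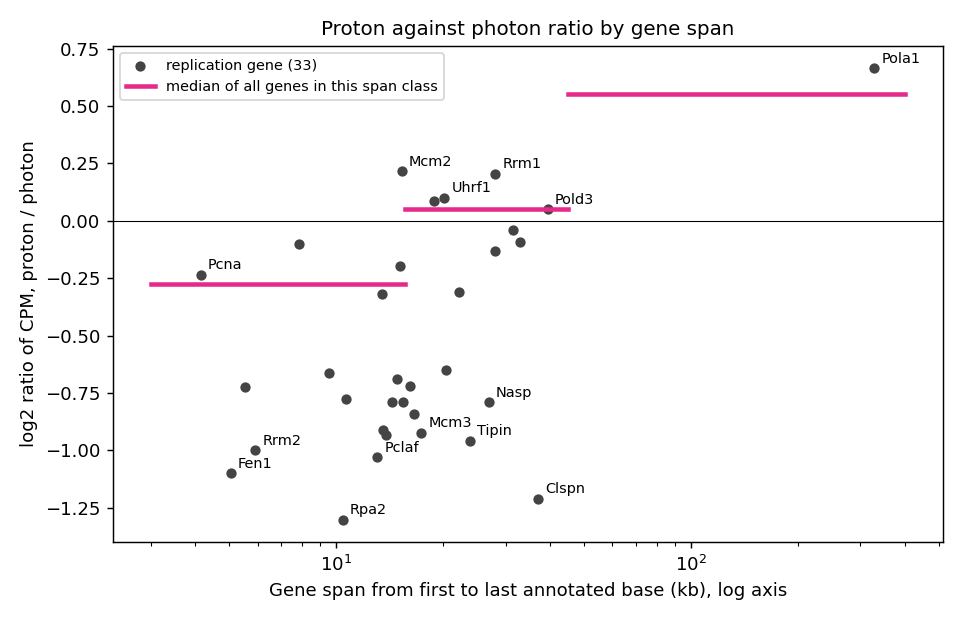
Log2 ratio of CPM in the proton to the photon library against gene span in kb on a log axis, with 1 point for each of the 33 replication genes and a line for the median of all genes in each of 3 span classes. The all-gene median climbs with span, most members lie under it, and Pola1, at 327 kb, lies near it.

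Each ratio was also divided by the median of genes of like span. Then 14 of 30 members were still lower in proton than in photon, with a median of 0.683, and none was higher. Of 10157 genes, 1243 were lower and 903 higher. Pola1 then stood at 0.961, so its higher proton level disappeared. The counts higher than control became 24 of 26 for photon and 14 of 25 for proton, beside 881 of 10090 and 1330 of 10211 genes. The sources used here do not say whether reads in introns were counted, and the cause of the relation with span was not tested.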

How the data were processed

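Cell Ranger 7.0.1 and the build mm10 are named per the submitters' processing notes, and cellranger 7.0.0 per the file headers. The authors deposited raw UMI counts per gene and barcode, 1 matrix for each of 3 libraries. The sources used here do not state the annotation release, intron counting or barcode filter. These counts were kept for barcodes with at least 500 genes and at most 20% mt- UMIs, summed per library and scaled to a library total of 1e+06 (CPM). A gene was called at a fold of at least 1.5 with a mean of at least 5 CPM. Ratios carry exact conditional binomial intervals and shares exact Clopper-Pearson intervals, both at 95%. A count of 0 allows up to 3 counts. With 1 library per group there is no test and no replicate. Shares were read after thinning barcodes to 2000 UMIs. No doublet caller was run and no doublets were removed, and an alternative left out the 5% of barcodes with the most UMIs.

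The members and lists were chosen with earlier results of these data known. Every member is accounted for. Of the 61 other replication genes, among those with a mean of at least 5 CPM, the 3 highest and 3 lowest ratios per irradiated library are named, and of genes outside the members the 10 highest in Pclaf or Rrm2 barcodes with at least 25 CPM. Positions are from GENCODE M21 (GRCm38). On that annotation 9 members share their strand's interval with another gene, 13 overlap a gene on the other strand, and Pcna, Tyms and Nasp have named pseudogenes, so these counts could be split. The scripts used Python 3.11.15, numpy 2.4.6, scipy 1.17.1, pandas 2.3.3 and matplotlib 3.10.9, and were tested on simulated data.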

Additional observations from a re-analysis of the deposited data

How the results depend on the processing

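No paired analysis was possible because each group has 1 library. Scaling by the median of gene ratios moved the median of all genes from -0.12 to 0 (log2) for photon against control. Among all genes called there, the share that was higher went from 43.8% to 65.0%, and for proton against photon from 61.4% to 44.3%. The summed photon ratio was then 2.16 and the proton to photon ratio 0.669. With a minimum of 25 CPM, fewer genes passed. Then 7 of 12 members were higher in photon, beside 333 genes higher and 474 lower over all genes. In proton 4 of 9 were higher, beside 633 genes higher and 874 lower. Against photon 7 of 13 were lower in proton and 1 was higher, beside 948 genes lower and 1318 higher. Of the other replication genes 5 of 25 were higher in photon and 4 of 22 in proton. With no minimum 20 of 33 members were higher in proton, beside 5883 genes higher and 6152 lower. At 2-fold 5 of 25 were higher in proton, beside 525 genes higher and 499 lower. At that fold 4 of 30 were lower in proton than in photon, beside 352 genes lower and 321 higher. The summed proton ratio was 1.48 without mt-, Rpl and Rps genes, 1.53 in barcodes with at least 1000 genes and at most 10% mt- UMIs, and 1.57 at 2000 UMIs, and the proton to photon ratio was 0.745 and 0.778 under the last 2. The photon ratio in the stricter barcodes was 2.06. Alternatives on Krt14, span, at least 5 members and shared barcodes were chosen after seeing the data. With Krt14 the summed ratios were 2.21, 1.87 and 0.843. Of 30 members 11 were then lower and 1 higher in proton than in photon, beside 1365 genes lower and 2018 higher over all genes. Without Krt14 the summed ratios were 1.00, 1.08 and 1.07, the last reversed. Of 21 members 4 were then higher and 2 lower in photon, beside 698 genes higher and 707 lower over all genes. Of 22 members 5 were higher and 3 lower in proton, beside 1810 genes higher and 1699 lower. Against photon, 4 of 22 were higher and 1 was lower in proton, beside 1993 genes higher and 1452 lower. With 2 UMIs required of Pclaf and Rrm2, 2 of 31 members were higher and 0 lower in photon, and 0 were higher and 9 lower in proton. The summed ratios were 0.934 (reversed), 0.788 and 0.844. After thinning 13 were higher and 0 lower in photon, and 6 were higher and 4 lower in proton. The summed photon ratio was then 1.37 and the proton to photon ratio 0.776. By Top2a or Mki67, 2 were higher and 4 lower in proton, with a summed proton ratio of 0.968 and a proton to photon ratio of 0.785. Shares over all genes were not counted under these choices, so the member counts are not read as particular to the members. The share with at least 2 members had ratios of 1.77, 1.51 and 0.851 (photon to control, proton to control, proton to photon). At 1000 UMIs these were 2.29, 1.72 and 0.751, not thinned 1.32, 1.00 and 0.759, at 3 members 3.52, 2.75 and 0.782, and at 5 members 7.75, 5.15 and 0.664. Single members' ratios past 1.5-fold gave 528 values under 8 alternatives, which did not include the Krt14 splits or other minimum levels and folds. Of these values 527 kept their direction and 514 stayed past 1.5-fold. The exception in direction was Pola1, reversed to 0.961 by centring on span. The cause was not tested for these changes.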
